A study of Mus musculus and Homo sapiens with 24 samples.

Results

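The nuclear genes for subunits of the respiratory chain and of ATP synthase were followed in HepG2 cells, a human line of hepatocyte-like cells from a liver tumor. Members were all genes with symbols of the NDUFA, NDUFB, NDUFC, NDUFS and NDUFV series, SDHA to SDHD, the UQCR series, COX4 to COX8, or the ATP5 series. In the NDUF symbols only digits could follow these letters. After COX4 to COX8 at most 1 letter (A, B or C) and 1 digit could follow. In at least 1 library the estimated count also had to be above 5. Of 85 matching symbols among the 28278 genes of the table, 81 met this rule: 37 NDUF, 4 SDH, 10 UQCR, 10 COX and 20 ATP5 genes. The other 4 (COX6A2, COX7A1, COX7B2 and COX8C, which encode tissue-restricted forms of cytochrome oxidase subunits) had a rounded count of 0 in every library, which allows up to 0.138 to 0.221 CPM (counts scaled to a common library size), depending on the library. The members nearest the limit were ATP5MGL, with 5 to 14 counts per library, and COX6B2, with 1 to 24.

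The respiratory chain lies in the inner mitochondrial membrane. Complex I (the NDUF proteins) oxidizes NADH and complex II (the SDH proteins) oxidizes succinate, complex III (UQCR) passes electrons from ubiquinol to cytochrome c, complex IV (COX) reduces oxygen, and complex V (ATP5), the ATP synthase, uses the proton gradient to make ATP. Complexes I, III, IV and V also contain subunits made inside the organelle from mitochondrial DNA, so the nuclear genes supply only part of each complex, whereas all subunits of complex II are nuclear. In hepatocytes these complexes serve a high demand for ATP, and under hypoxia HIF1 is known to divert pyruvate away from them and to exchange some subunits.

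The study asked how estrogen and hypoxia act together on liver cells. Ribosomal RNA-depleted total RNA was sequenced from 4 groups of 3 libraries each, lettered A to C: untreated cells (control), cells treated for 4 h with 50 μM CoCl2, which stabilizes HIF1α and is used to mimic hypoxia, cells treated for 4 h with 25 nM β-estradiol (estrogen), and cells given both agents at these doses (CoCl2+estrogen). All 12 libraries came from this 1 cell line, with no genetic change named in the labels, and by the study's methods cells were kept in serum-free medium overnight before treatment. The labels do not say whether the 3 libraries of a group were separate cultures, so p-values measure only the spread between these libraries.

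The estimated counts summed to between 13592637 and 21701480 per library. Hepatocyte genes marked all 12 libraries, with ALB, the gene for albumin, at 6320 to 7024 CPM in control and 2491 to 2702 CPM in estrogen libraries, whereas PTPRC, a leukocyte gene, had no count and DES, a muscle gene, had at most 0.0662 CPM. All 9 hepatocyte markers were lower in every estrogen than in every control library, with summed levels of 27570 to 30114 in control and 15219 to 16606 CPM in estrogen libraries. COL1A1, a collagen gene of fibroblast-like cells, went from 19.4 to 22.9 CPM in control to 1.00 to 1.39 CPM in estrogen libraries, and PECAM1, an endothelial gene, from 0.700 to 0.774 CPM to 1.46 to 2.14 CPM. The part of these differences in the members' changes was not tested. CoCl2 raised its known target PFKFB3 from 13.2 to 14.5 CPM in control to 93.2 to 119 CPM. ESR1, the gene for estrogen receptor α, was at 0.103 to 0.292 CPM in control libraries and at 3.05 to 5.15 CPM in estrogen libraries, and the estrogen target GREB1 was at 186 to 199 CPM and at 123 to 133 CPM, respectively. The ESR1 control values lay about the limit of 3 counts, 0.145 to 0.183 CPM in these libraries. The estrogen targets TFF1 and PGR were also scarce, at 0.117 to 0.364 and 0 to 0.0517 CPM in control. In estrogen libraries they were at 0.170 to 0.487 and 0 to 0.286 CPM. Control C held the highest of the 3 control values for 66 of the 81 members, and CoCl2 B, which had the smallest total, and CoCl2 A were the least alike of any group's libraries (r = 0.9816 across genes).

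Values are CPM with library sizes scaled by TMM, the default of edgeR. They are relative to the rest of the RNA of a library, so that fewer cells that express a gene and less of its RNA per cell cannot be told apart. Each comparison was fitted on the 6 libraries of its groups over all genes for which any of them had a count above 5. A gene was called changed, or is said to have risen or fallen, where edgeR's quasi-likelihood test gave a Benjamini-Hochberg adjusted p of at most 0.05 over all genes tested. Adjusted p-values below are from this test.

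The members together took 0.499% ± 0.0267 of all counts in control, 0.484% ± 0.0266 in CoCl2, 0.345% ± 0.0137 in estrogen and 0.360% ± 0.0127 in CoCl2+estrogen libraries (SD, n = 3 for each). Summed after TMM scaling, the ATP5 genes had 1692 ± 96.4 CPM in control and 1102 ± 47.6 CPM in estrogen libraries (SD, n = 3), or 65.2% of control. The UQCR genes went from 622 ± 41.0 to 461 ± 18.7 CPM and the NDUF genes from 1605 ± 114 to 1332 ± 42.5 CPM (SD, n = 3). None of these 3 sums overlapped between control and estrogen libraries. The 4 SDH genes had 331 ± 3.08 CPM in control and 287 ± 10.2 CPM in estrogen libraries, and the 10 COX genes 466 ± 36.6 and 425 ± 28.0 CPM (SD, n = 3), with only the COX sums overlapping. With CoCl2 alone the sums were between 97.4% and 104% of control for the 5 complexes.

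**Figure D1:**
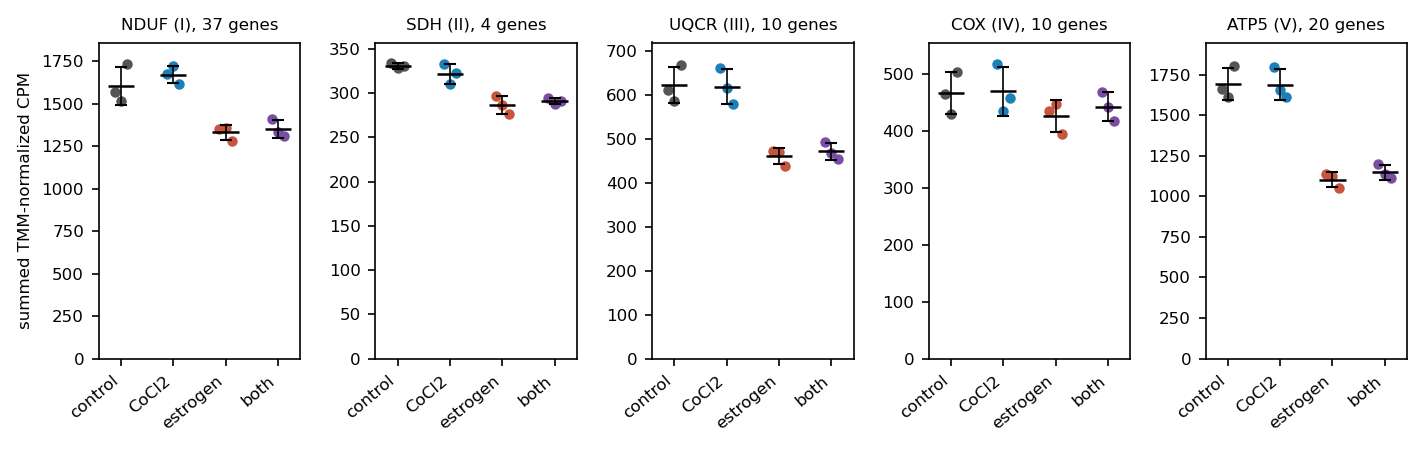
Summed TMM-normalized CPM of the member genes of each complex (y axis) in the 4 groups (x axis, "both" is CoCl2+estrogen), with a point for each library, a line for the mean and bars of 1 SD (n = 3). The ATP5 sums lie near 1692 CPM in control and near 1102 CPM in estrogen libraries, whereas the COX sums overlap between these groups.

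With CoCl2 alone, no member changed by the test used. Of the 81 members 0 were called by edgeR's quasi-likelihood test, where 1.44% of all 15872 genes tested were (1.31% higher and 0.132% lower), and DESeq2 also called 0. At an unadjusted p under 0.05 there were 10 members, and the smallest adjusted p among members was 0.219. The share of all genes at this unadjusted limit was not counted, so the 10 cannot be set against it. The median log2 fold change of the members was 0.03, beside -0.0033 over all genes. The 95% confidence intervals of 67 members lay within 0.5 of 0 on the log2 scale, so for the other 14 a change of that size was within the error of 3 libraries a group. Groups did not overlap for 6 members that were higher and 2 that were lower, where this held for 8.57% and 8.03% of all genes.

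The members with the smallest p under CoCl2 came from several complexes, and the following were chosen after their values were seen. ATP5ME, a small membrane subunit of ATP synthase, had 19.1, 18.0 and 22.9 CPM in control and 24.2, 28.5 and 23.9 CPM in CoCl2 libraries (A to C). The groups did not overlap, and the fitted log2 difference was 0.35 with a standard error of 0.11 (adjusted p = 0.219, edgeR). SDHD, which anchors complex II in the membrane, had 46.9, 43.4 and 47.3 CPM in control and 42.1, 33.7 and 40.1 CPM in CoCl2 libraries, the latter all lower, with an adjusted p of 0.351 (edgeR). Among members with a wide spread was UQCRHL, a retrogene copy of the complex III hinge gene UQCRH, at 19.7 CPM in CoCl2 B and at 4.85 and 6.60 CPM in CoCl2 A and C, so that a single library set its mean.

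Estrogen changed 74.1% of the members, near the 68.9% of all genes tested, and most of the members called fell. Of the 81 members, 53 fell and 7 rose (edgeR), where 34.2% of all 16281 genes tested fell and 34.7% rose, 68.9% together. The median log2 fold change of the members was -0.42, beside -0.0040 over all genes. A fall of more than 1 on the log2 scale was called for 11 members, and 25 members lay within 0.25 of 0. The shares of all genes at these 2 limits were not counted. The lower and upper quartiles were -0.75 and -0.10 for members, and -0.66 and 0.66 over all genes, so large falls were also common outside the set. Without control C the counts were 47 lower and 9 higher, with a median of -0.34. Groups did not overlap for 50 members that were lower and 8 that were higher, where this held for 35.3% and 36.6% of all genes.

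**Figure D2:**
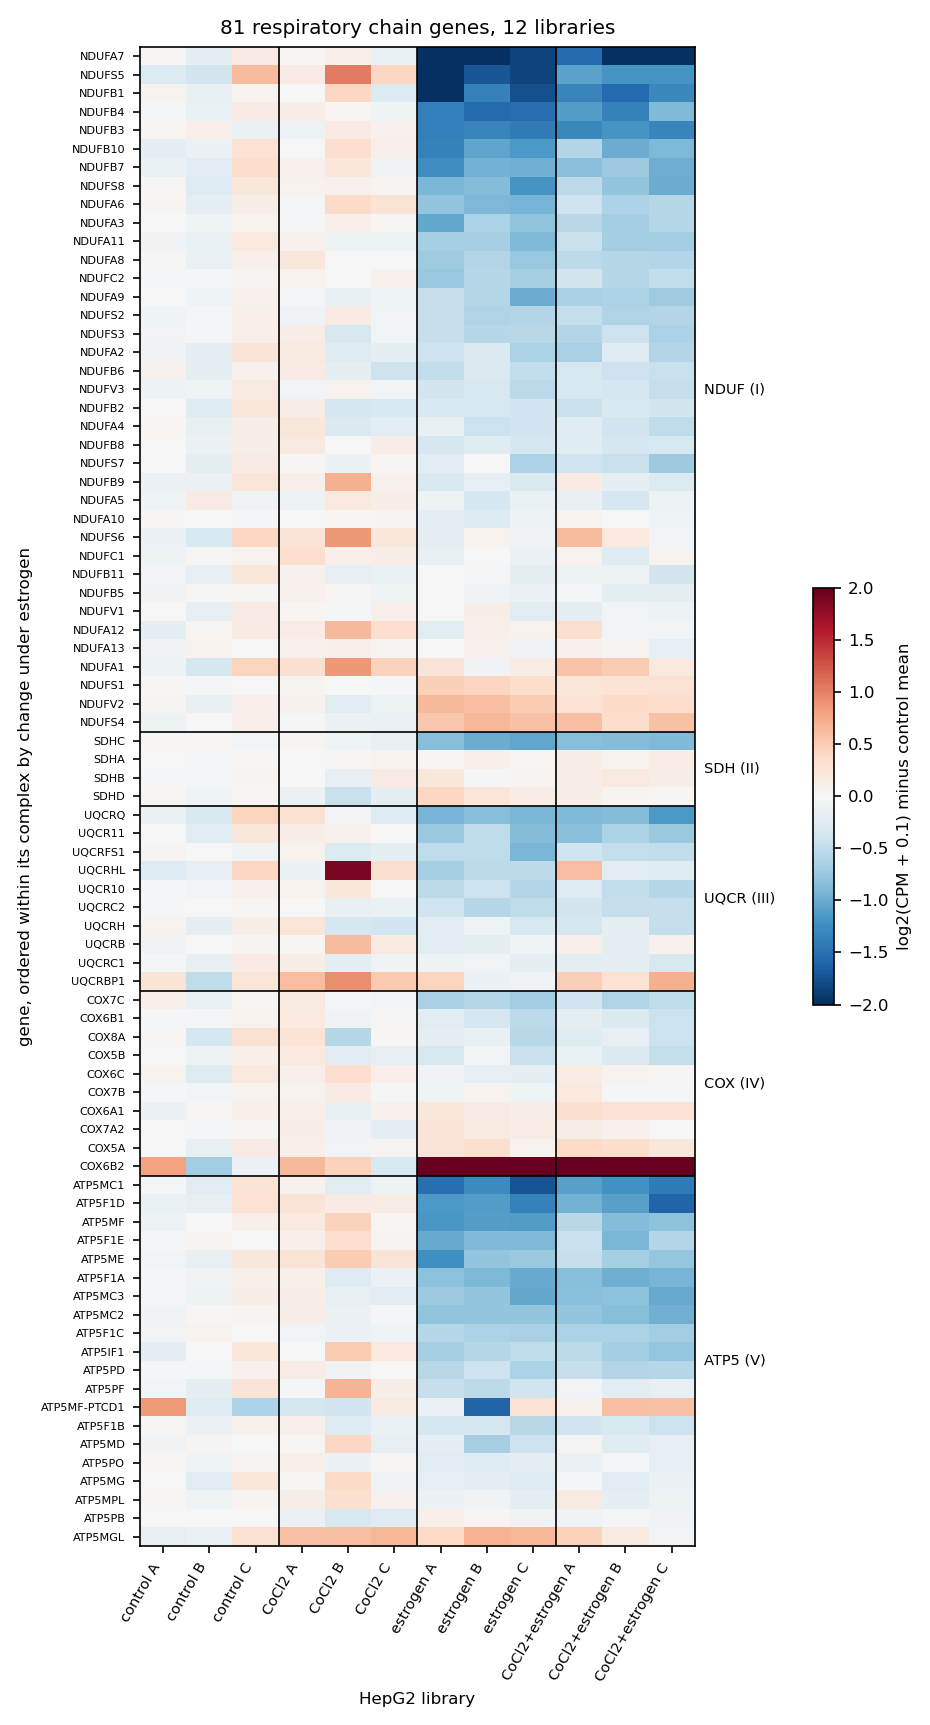
Level of each of the 81 members (rows, ordered within each complex by the change under estrogen) in the 12 libraries (columns), as log2(CPM + 0.1) minus the mean of the 3 control libraries, with blue for lower and red for higher and colors ending at -2 and 2. Most rows are blue in the estrogen and CoCl2+estrogen libraries and near white in control and CoCl2, with NDUFS1, NDUFV2, NDUFS4 and COX6B2 red.

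The NDUF genes were counted by the part of complex I they belong to. Parts were assigned from general knowledge after values had been seen, so differences between them were not tested. Of all genes tested in estrogen against control, 34.7% rose and 34.2% fell. Of 8 genes of the N module, which holds the site of NADH oxidation, 3 rose and 2 fell (median -0.04 on the log2 scale). Of 8 genes of the Q module, which passes electrons to ubiquinone, 6 fell and 0 rose (median -0.62). Of 20 genes of the membrane arm, which houses the proton pumps, 15 fell and 0 rose (median -0.56).

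The largest falls of the NDUF genes were in NDUFA7 and NDUFS5. NDUFA7, an accessory subunit next to the Q module, had 21.6, 18.7 and 23.9 CPM in control and 4.69, 5.29 and 5.84 CPM in estrogen libraries. All estrogen values were far below all control values, at 24.6% of the control mean, and NDUFA7 fell by 2.04 ± 0.13 (standard error) on the log2 scale (adjusted p = 2.22e-09, edgeR). NDUFS5, an accessory subunit on the intermembrane side of the membrane arm, had 23.8, 22.3 and 44.9 CPM in control and 6.78, 8.72 and 7.86 CPM in estrogen libraries. Control C was nearly double its group mates, with a coefficient of variation of 41.7% in control, yet the groups lay apart, and NDUFS5 fell by 1.97 ± 0.22 (standard error) on the log2 scale (adjusted p = 1.19e-06, edgeR).

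Several more genes of the membrane arm, chosen after their values were seen except for NDUFB1, fell by more than 1 on the log2 scale. NDUFB1 had 14.9, 12.8 and 14.9 CPM in control and 3.00, 5.50 and 4.10 CPM in estrogen libraries (log2 fold change -1.79, adjusted p = 2.36e-07, edgeR). NDUFB3 had 42.7 to 50.0 CPM in control and 17.7 to 18.4 CPM in estrogen libraries, one of the tightest separations of the set (adjusted p = 1.55e-09, edgeR). NDUFB4, NDUFB10 and NDUFB7 fell by 1.50, 1.22 and 1.09 on the log2 scale. NDUFS8, a Q module subunit that carries iron-sulfur clusters, fell by 1.01.

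The 3 NDUF genes that rose all encode N module subunits. NDUFS1, the largest of the iron-sulfur subunits, had 200.5, 195 and 198 CPM in control and 276, 265 and 252 CPM in estrogen libraries, a rise of 0.40 ± 0.06 (standard error) on the log2 scale (adjusted p = 1.47e-05, edgeR). NDUFV2, which carries a further iron-sulfur cluster, rose from 58.2 to 69.1 CPM in control to 91.5 to 101 CPM (log2 fold change 0.57, adjusted p = 5.34e-06, edgeR). NDUFS4, an accessory subunit needed to join the N module to the rest, rose from 15.3, 16.6 and 17.6 to 23.9, 26.2 and 24.9 CPM (log2 fold change 0.58, adjusted p = 5.77e-05, edgeR). In each of these genes the lowest estrogen value was above the highest control value. NDUFV1, which binds NADH and FMN, was at 49.5 to 62.6 CPM and 48.4 to 60.4 CPM (log2 fold change -0.04, 95% interval within 0.5 of 0, adjusted p = 0.693, edgeR).

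Of the 4 genes of complex II, 1 fell, 1 rose and 2 were not called, where 34.2% of all genes fell and 34.7% rose. SDHC, a membrane anchor that binds heme and ubiquinone, had 126, 129 and 120 CPM in control and 69.2, 62.9 and 60.8 CPM in estrogen libraries. Its levels fell to 51.5% of control without overlap (log2 fold change -0.97, standard error 0.07, adjusted p = 7.74e-09, edgeR). SDHD, the partner anchor, had 46.9, 43.4 and 47.3 CPM in control and 61.3, 54.1 and 50.8 CPM in estrogen libraries, with a log2 fold change of 0.26 (adjusted p = 0.00734, edgeR). The rise of SDHD was no longer called without estrogen A (adjusted p = 0.0897, edgeR) or with library totals in place of TMM. SDHA, the flavoprotein that oxidizes succinate, was at 134, 129 and 135 CPM in control and at 134, 142 and 137 CPM in estrogen libraries (log2 fold change 0.04, adjusted p = 0.557, edgeR). SDHB, the iron-sulfur subunit, was at 27.3, 27.0 and 28.7 CPM and at 32.3, 26.9 and 28.8 CPM (log2 fold change 0.07, adjusted p = 0.471, edgeR).

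**Figure D3:**
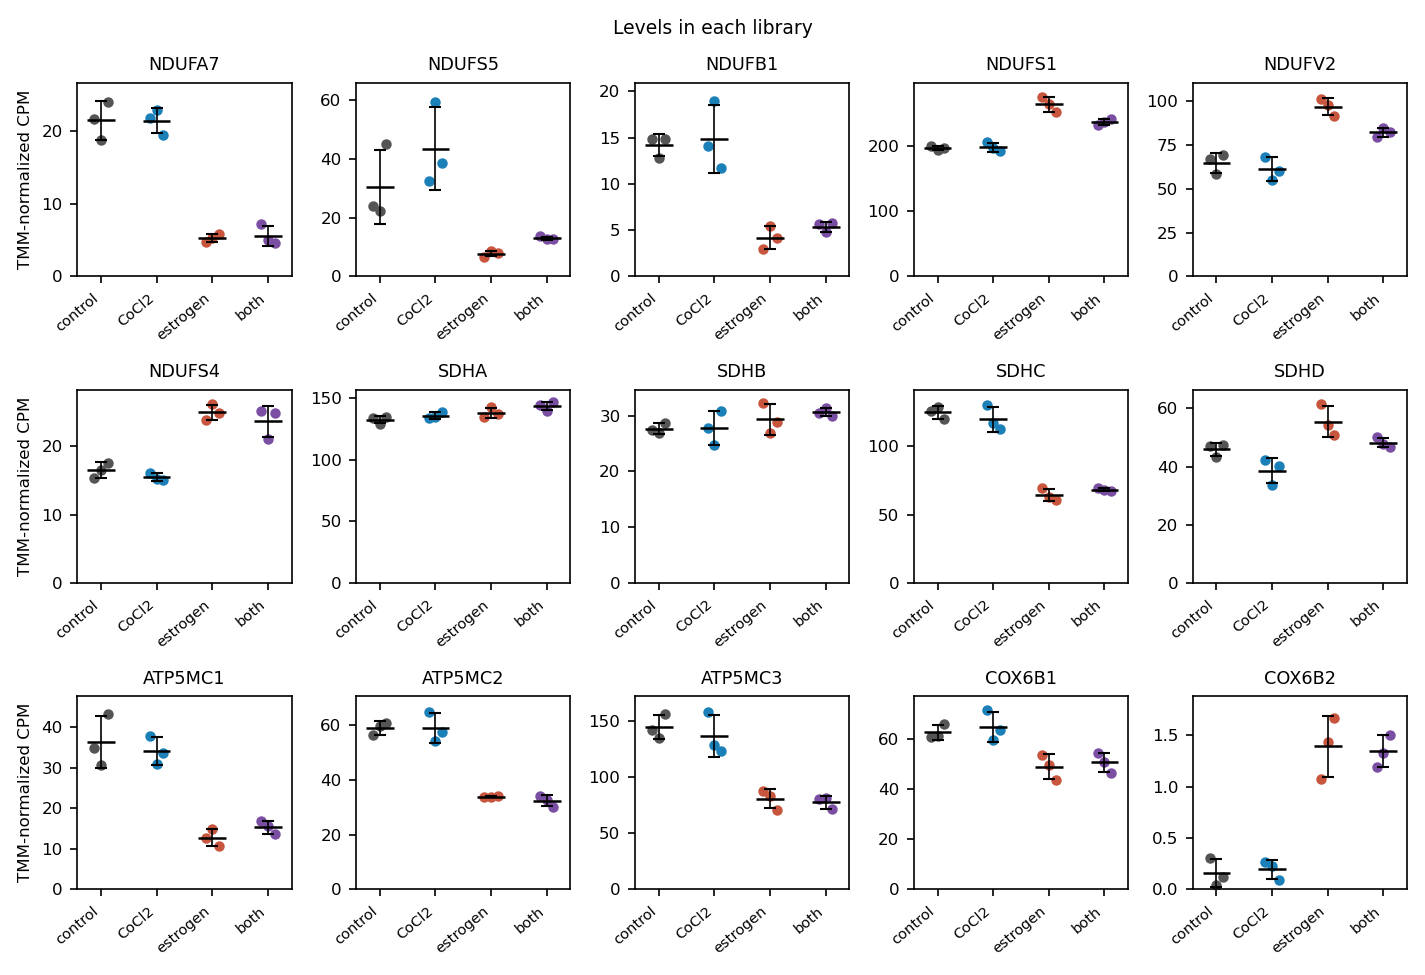
TMM-normalized CPM (y axes, each starting at 0) of 15 members in the 4 groups ("both" is CoCl2+estrogen), with a point for each library, a line for the mean and bars of 1 SD (n = 3). SDHC and the 3 ATP5MC genes sit lower, and NDUFS1, NDUFV2, NDUFS4 and COX6B2 higher, in both groups given estrogen, whereas SDHA and SDHB stay near their control values.

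In complex III, 7 of 8 genes fell and 0 rose (median -0.52 on the log2 scale), where 34.2% of all genes fell and 34.7% rose. UQCRQ, a small subunit that contacts cytochrome b, had 35.1, 30.7 and 52.2 CPM in control and 20.0, 21.1 and 20.2 CPM in estrogen libraries, with control C highest and the groups apart (log2 fold change -0.95, standard error 0.15, adjusted p = 3.34e-05, edgeR). UQCR11, the smallest subunit, fell from 37.3 to 50.4 CPM to 23.8 to 30.5 CPM (log2 fold change -0.73, adjusted p = 2.48e-05, edgeR). UQCRC2, a core subunit, had 203, 208 and 213 CPM in control and 158, 140 and 146 CPM in estrogen libraries, and fell by 0.51 (adjusted p = 2.57e-06, edgeR). The other core gene, UQCRC1, was at 96.03 to 120 CPM and 93.1 to 103 CPM and was not called (adjusted p = 0.129, edgeR).

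UQCRH and its copy UQCRHL are near-identical in sequence and had counts that were not whole, as reads shared between genes give, so their values are uncertain. UQCRH was at 35.9 to 44.7 CPM in control and 32.7 to 38.8 CPM in estrogen libraries, overlapping (log2 fold change -0.23, adjusted p = 0.0378, edgeR). The call on UQCRH was lost by DESeq2, with all 12 libraries in 1 fit, with the replicate letter as a block (adjusted p = 0.0771, edgeR), without control C (log2 fold change -0.18, adjusted p = 0.114, edgeR), and without control A, estrogen A or estrogen C. UQCRHL was at 4.39, 4.69 and 7.06 CPM in control and 3.28, 3.57 and 3.62 CPM in estrogen libraries (adjusted p = 0.0104, edgeR), and was no longer called without control C (adjusted p = 0.0663, edgeR) or with all 12 libraries in 1 fit (adjusted p = 0.187, edgeR).

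Complex IV had changes in both directions, as had all genes tested, of which 34.2% fell and 34.7% rose. With NDUFA4, which is now counted as a subunit of this complex, 5 of 11 genes fell, 3 rose and 3 were not called (median -0.16 on the log2 scale). COX7C fell from 68.7, 58.4 and 66.0 to 40.9, 43.1 and 39.6 CPM (log2 fold change -0.66, standard error 0.08, adjusted p = 1.43e-06, edgeR). COX5A, which with COX5B sits beside the catalytic core, was at 45.0, 40.7 and 51.0 CPM in control and 54.1, 56.8 and 47.7 CPM in estrogen libraries, with overlap and an adjusted p of 0.0476 (edgeR). The call on COX5A was lost by DESeq2, under upper-quartile scaling, with library totals, with all 12 libraries in 1 fit (adjusted p = 0.0573, edgeR), with the replicate letter as a block (adjusted p = 0.0939, edgeR), and without control A, control B, estrogen A or estrogen B (adjusted p = 0.106 to 0.229, edgeR, for these 4). COX5B was at 64.8 to 74.7 CPM and 51.0 to 66.9 CPM, with overlap (log2 fold change -0.28, adjusted p = 0.0121, edgeR).

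Some COX subunits exist in alternative forms, and for COX6B the forms moved apart. COX6B1, the common form, had 60.9, 61.3 and 66.1 CPM in control and 53.8, 49.6 and 43.8 CPM in estrogen libraries (log2 fold change -0.37, standard error 0.08, adjusted p = 0.000563, edgeR). COX6B2, known for its expression in testis, had 6, 1 and 2 counts in control, 5, 3 and 2 in CoCl2, 19, 20 and 24 in estrogen and 18, 22 and 22 in CoCl2+estrogen libraries. Both groups with estrogen were higher than both without it, without overlap, and COX6B2 was called (adjusted p = 0.000157, edgeR), but its fitted log2 fold change of 3.09 rests on so few control counts that it depends on the prior count. COX7A2 was at 43.1 to 45.4 CPM in control and 49.3 to 53.1 CPM in estrogen libraries (log2 fold change 0.18, adjusted p = 0.0232, edgeR), a call lost when any of control A, control B, estrogen A or estrogen B was left out (adjusted p = 0.0532 to 0.14) and under upper-quartile scaling, with library totals, with all 12 libraries in 1 fit or with the letter as a block (adjusted p = 0.0689, edgeR). COX8A was at 41.7 to 65.8 CPM and 36.0 to 48.0 CPM, with overlap (log2 fold change -0.32, adjusted p = 0.0418, edgeR). The call on COX8A was lost without control C, where the log2 fold change was -0.17 (adjusted p = 0.218, edgeR), without control A, estrogen A or estrogen C, with all 12 libraries in 1 fit, and with the letter as a block (adjusted p = 0.0687, edgeR). COX6A1 and COX7B were not called, with log2 fold changes of 0.15 and -0.05.

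Among the ATP synthase genes, 16 of 20 ATP5 symbols fell and 0 rose (median -0.58 on the log2 scale). Of all genes tested, 34.2% fell and 34.7% rose, shares that also stand beside the counts by part below. All 5 genes of the F1 head, which holds the catalytic sites, fell, with ATP5F1D, the subunit δ gene, from 34.8, 33.7 and 46.7 to 17.1, 17.4 and 14.8 CPM (log2 fold change -1.23, standard error 0.12, adjusted p = 1.97e-07, edgeR). ATP5F1A, which encodes the α subunit, fell from 330, 319 and 361 to 189, 179 and 167 CPM (log2 fold change -0.93), and ATP5F1B, which encodes the catalytic β subunit, from 377, 341 and 392 to 289, 292 and 252 CPM (log2 fold change -0.43, adjusted p = 5.17e-05, edgeR). In all 3 genes each estrogen value was below each control value, with counts of ATP5F1A that were not whole and so may include reads of other genes. ATP5IF1, an inhibitor of ATP hydrolysis by the enzyme, fell by 0.60 (adjusted p = 3.91e-05, edgeR).

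The c subunit of the membrane rotor is encoded by 3 genes that make the same mature protein, and all 3 fell. ATP5MC1 had 34.8, 30.7 and 43.4 CPM in control and 12.6, 14.9 and 10.8 CPM in estrogen libraries, or 35.1% of control (log2 fold change -1.52, standard error 0.13, adjusted p = 6.89e-08, edgeR). ATP5MC2 fell from 56.2, 59.7 and 60.8 to 33.8, 33.9 and 34.0 CPM (log2 fold change -0.81, adjusted p = 3.59e-08, edgeR). ATP5MC3 fell from 142, 135 and 157 to 87.6, 83.8 and 71.3 CPM (log2 fold change -0.85, adjusted p = 1.53e-07, edgeR). Control and estrogen values were apart in each. Of the 4 genes of the peripheral stalk 3 fell, the exception being ATP5PB at 80.8 to 81.7 CPM in control and 77.5 to 87.0 CPM in estrogen libraries (log2 fold change 0.01, adjusted p = 0.873, edgeR), and of 5 accessory membrane subunits 4 fell, led by ATP5MF (log2 fold change -1.15).

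**Figure D4:**
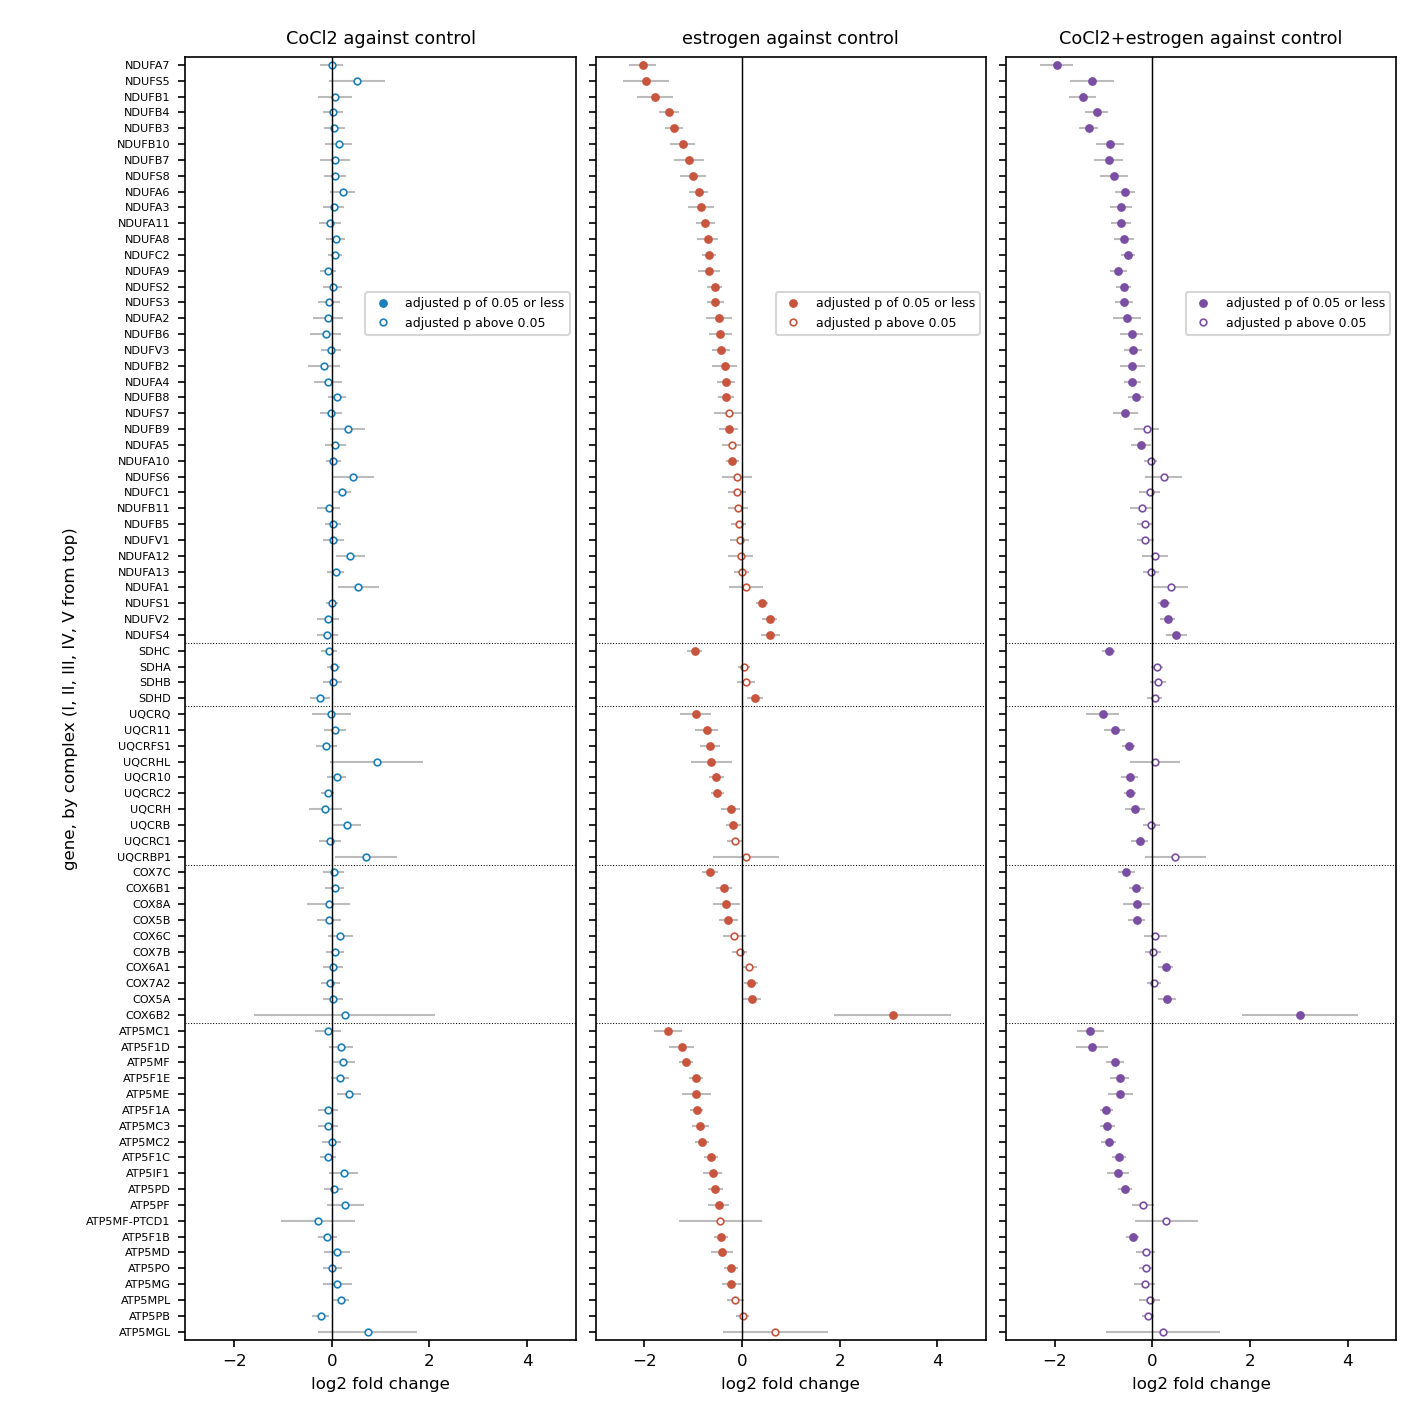
Fitted log2 fold change (x axes) of each of the 81 members (rows, by complex from I at the top to V) in CoCl2, estrogen and CoCl2+estrogen against the same control libraries, with 95% confidence intervals as lines, filled points for an adjusted p of 0.05 or less and open points otherwise. No point is filled for CoCl2, 60 are filled for estrogen and 54 for CoCl2+estrogen.

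Cells given both agents were compared with the same control libraries, so that the values that follow are not independent of those above. Of the 81 members, 48 fell and 6 rose (edgeR), where 33.2% of all 16201 genes tested fell and 32.3% rose, 65.4% together. The median log2 fold change of the members was -0.40, beside -0.0090 over all genes, and was -0.31 without control C. NDUFA7 was at 7.15, 4.96 and 4.65 CPM (log2 fold change -1.96), SDHC at 69.4, 68.4 and 67.5 CPM (log2 fold change -0.90) and ATP5MC1 at 16.8, 15.5 and 13.6 CPM (log2 fold change -1.27), each below all control values. Groups did not overlap for 48 members that were lower and 9 that were higher, where this held for 34.1% and 35.0% of all genes. The 6 genes that rose were NDUFS1, NDUFV2, NDUFS4, COX5A, COX6A1 and COX6B2.

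The effect of estrogen in the presence of CoCl2 was measured in CoCl2+estrogen against CoCl2 libraries, which are not shared with the comparison of estrogen with control. Of the 81 members, 44 fell and 8 rose (edgeR), where 30.8% of all 16200 genes fell and 30.1% rose, 60.9% together, and the median was -0.37, beside -0.0027 over all genes. Groups did not overlap for 43 members that were lower and 9 that were higher, where this held for 32.7% and 33.4% of all genes. The sign was the same in both comparisons for 77 members (95.1%), and for 88.3% of all genes tested in both. Of the 60 members called without CoCl2 and the 52 called with it, 48 were called in both, or 80% and 92.3% of each list, all in the same direction. For all genes tested in both comparisons these shares were close to that, at 80.5% and 91%, with 8853 of 8891 in the same direction. Across the 81 members the log2 fold changes correlated with Pearson's r = 0.942 and Spearman's rho = 0.917, and across all genes with 0.888 and 0.895. These coefficients describe genes measured in the same libraries, which are not independent replicates. The 4 members with opposite signs were ATP5MF-PTCD1 (a readthrough transcript), ATP5MGL, NDUFA1 and UQCRBP1 (a pseudogene), none of them called in estrogen against control. Of these ATP5MF-PTCD1 was called higher in CoCl2+estrogen against CoCl2 (log2 fold change 0.58, adjusted p = 0.0371, edgeR), at 4.37, 6.29 and 6.23 CPM against 3.23, 3.13 and 4.67 CPM, which overlapped.

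**Figure D5:**
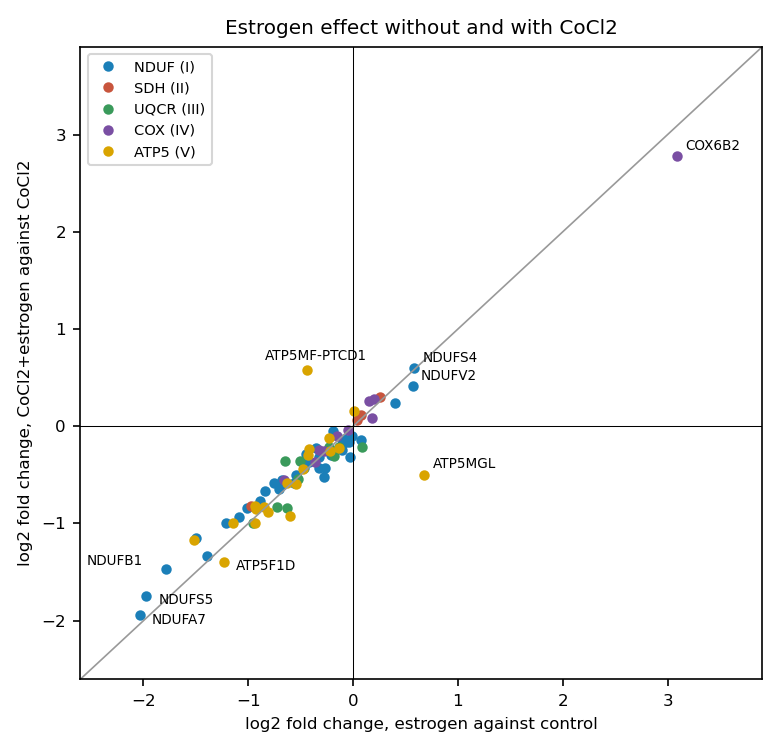
Log2 fold change of each member in estrogen against control (x axis) and in CoCl2+estrogen against CoCl2 (y axis), a pair of comparisons with no library in common, colored by complex, with the line of equal values. Of 81 points 77 have the same sign on both axes, and ATP5MF-PTCD1 and ATP5MGL lie farthest from the line.

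With CoCl2 added to estrogen, 13.6% of the members were called, where 17.0% of all genes tested were. In CoCl2+estrogen against estrogen libraries 10 members rose and 1 fell (edgeR), where 8.14% of all 15925 genes rose and 8.85% fell, 17.0% together, and the median of the members was 0.09, beside 0.0098 over all genes. Groups did not overlap for 13 members that were higher and 4 that were lower, where this held for 13.6% and 18.5% of all genes. NDUFS5 had 6.78, 8.72 and 7.86 CPM in estrogen and 13.7, 12.6 and 12.6 CPM in CoCl2+estrogen libraries, which did not overlap and remained below the 22.3 CPM of the lowest control (log2 fold change 0.77, standard error 0.13, adjusted p = 0.000372, edgeR). That call on NDUFS5 was lost when all 12 libraries were fitted together (adjusted p = 0.0652, edgeR). ATP5MF had 33.3, 34.8 and 34.2 CPM in estrogen and 50.9, 40.8 and 42.3 CPM in CoCl2+estrogen libraries (log2 fold change 0.42, adjusted p = 0.00236, edgeR). The other 8 that rose were NDUFB4, NDUFB10, NDUFA6, NDUFC2, NDUFA10, ATP5PF, ATP5F1E and UQCRHL, with log2 fold changes of 0.21 to 0.73, and NDUFV2 fell by 0.21. The log2 fold change of UQCRHL was 0.39 without CoCl2+estrogen A (adjusted p = 0.265, edgeR), and its call was also lost by DESeq2, with all 12 libraries in 1 fit, and without estrogen A or estrogen B. CoCl2+estrogen A held the highest value of its group for 55 of the 81 members, and without it the count of members called fell from 11 to 2. Without estrogen A it was 5.

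An interaction term fitted on the 12 libraries tested whether the effect of CoCl2 differed with estrogen. Of the 81 members 0 were called (edgeR), where 5.80% of all 16681 genes were (2.10% positive and 3.70% negative), and DESeq2 also called 0. At an unadjusted p under 0.05 there were 2, NDUFB4 and UQCRFS1, with interactions of 0.37 and 0.32 on the log2 scale and adjusted p-values of 0.214 and 0.251 (edgeR). The share of all genes at this unadjusted limit was not counted. The intervals were wider here, with a median half-width of 0.32, and those of 54 members lay within 0.5 of 0.

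Subunit genes outside the naming patterns were read beside the members. CYCS, which encodes cytochrome c, rose under estrogen from 92.6 to 104 CPM to 128 to 144 CPM (log2 fold change 0.43, adjusted p = 4.21e-05, edgeR), whereas NDUFAB1, the acyl carrier of complex I, fell by 0.53 (adjusted p = 1.1e-05, edgeR). CYC1, the cytochrome c1 gene of complex III, fell by 0.30 (adjusted p = 0.0196, edgeR), a call lost without control C (adjusted p = 0.073, edgeR), estrogen A or estrogen C. COX4I1 and COX7A2L, with log2 fold changes of 0.12 and 0.16, were not called. The genes of hypoxic variant subunits were scarcely detected, NDUFA4L2 at 0 to 0.616 CPM and COX4I2 at 0 in 11 of 12 libraries. None of the 13 mitochondrially encoded subunits was found among the genes tested under the symbols used, so they were not analysed here.

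Genes that build or regulate the complexes were counted in the same fits, in which 34.2% of all genes fell and 34.7% rose under estrogen. Among assembly factors under estrogen, 12 of 20 for complex I fell and 3 rose, 2 of 4 for complex II fell and 2 rose, 1 of 6 for complex III fell and 1 rose, 11 of 25 for complex IV fell and 10 rose, and 2 of 4 for complex V fell and 0 rose. The falls were led by ACAD9 (-2.12), UQCC2 (-1.99), COX18 (-1.84), SDHAF4 (-1.19) and ATPAF1 (-1.05 on the log2 scale), and the rises by COX19 (1.45), NDUFAF4 (0.99), UQCC1 (0.79) and SDHAF1 (0.68). For coenzyme Q, the electron carrier from complexes I and II to complex III, 10 of 11 synthesis genes fell, led by COQ2 (-0.95), and 0 rose. Of 13 genes of the citric acid cycle, 9 fell and 3 rose. SUCLG2 fell by 1.71 on the log2 scale, and OGDH rose by 0.57.

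By contrast, of 17 tested genes for regulators of mitochondrial gene expression 14 rose under estrogen and 0 fell, where 34.7% of all genes rose and 34.2% fell, with a median of 0.57 on the log2 scale. PPARGC1A, which encodes the coactivator PGC-1α, had 34.1, 41.0 and 32.9 CPM in control and 112, 109 and 123 CPM in estrogen libraries, without overlap (log2 fold change 1.65, standard error 0.09, adjusted p = 2.55e-10, edgeR). Under CoCl2 alone, where 1.44% of all genes were called, the list of HIF1 targets that act on mitochondria had 5 of 10 higher and 0 lower, and the lists above had 0 calls (edgeR), a count that so low a share would leave near 0. These were PDK1, which restrains pyruvate entry (log2 fold change 1.33), BNIP3L (1.09) and BNIP3 (1.03), which mark mitochondria for removal, MXI1 (0.97) and LDHA (0.46). Under estrogen 3 genes of that list rose and 5 fell, and PDK3, which encodes a further pyruvate dehydrogenase kinase, fell by 2.52.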

How the data were processed

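RNA-Seq libraries of HepG2 cells, 3 in each of 4 groups taken from the sample labels, were analysed. By the study's methods, libraries depleted of ribosomal RNA were sequenced as 76 bp read pairs, STAR (2.7.8a) was the aligner, Bowtie2 (2.2.5) served to filter out rRNA and tRNA sequences, and the authors obtained gene values from RefSeq annotation in Partek Flow. The methods name only the mouse build mm10, whereas the submitters' processing notes list hg38 and mm10, and the table of these human cells has human gene symbols. The build used for them is not given in the sources used here, nor is the strand setting of the counting. What the authors deposited are estimated counts for each gene without scaling by depth, of which 23.8% are not exactly whole. Values more than 0.05 from a whole number, which reads shared between genes leave, occurred in 16 members (ATP5F1A, ATP5F1E, ATP5MD, ATP5MF, ATP5MF-PTCD1, ATP5PF, NDUFA2, NDUFA3, NDUFB2, NDUFC2, NDUFS1, SDHA, UQCRB, UQCRBP1, UQCRH and UQCRHL), whose values are less certain.

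Counts were rounded and fitted in R 4.3.3 with edgeR 4.0.16 (glmQLFit, TMM, count above 5 in at least 1 library, adjusted p of at most 0.05). All 81 members passed this filter in every main fit, and 80 did for CoCl2 against control when control A was left out. The paper's own test was DESeq2 (1.42.0 here), run as an alternative beside other scalings, filters, all 12 libraries in 1 fit, a block for the replicate letter, and 1 library left out at a time. The functions were tested on simulated data in which few genes changed. That test does not cover comparisons in which most genes changed. Confidence intervals are 95%, and limits for genes without counts are 3 counts, which cover counting error only.

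The members and gene lists were chosen with earlier results of these data known. Lists were written from general knowledge. Named genes were those called under CoCl2, all SDH genes, the largest called rise and the 2 largest called falls of each complex, alternative forms of a subunit, the member with most CPM in each complex, and of each list the largest called rise and fall. Any further gene was named with its values in view. Gene lengths, positions, promoters and sequences were not used here.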

Additional observations from a re-analysis of the deposited data

Results flagged for a closer look

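No member of the respiratory chain set had an effect of CoCl2 that differed between cells without and with estrogen by edgeR's interaction test. Of all genes 5.80% were called in this test, and among the lists read beside the members 7 were. Of 25 complex IV assembly factors, 2 were called positive and 1 negative. Of 17 regulators 1 was called positive and 1 negative, as were 1 and 1 of 10 HIF1 targets, and 0 in the other lists tested. Whether the lists exceeded the share of all genes was not tested. COX19, which encodes a copper-handling assembly factor of complex IV, had an interaction of -0.55 on the log2 scale (adjusted p = 0.0108, edgeR), since CoCl2 changed it by 0.13 without estrogen and by -0.42 with it. BNIP3 had an interaction of -0.42 (adjusted p = 0.0169, edgeR), with log2 fold changes of 1.03 without and 0.61 with estrogen. LDHA, which encodes the lactate dehydrogenase A chain, had an interaction of 0.40 (adjusted p = 0.034, edgeR), with changes of 0.46 and 0.85, and was no longer called with the replicate letter as a block or when any of control A, control B, CoCl2 A, estrogen B, estrogen C, CoCl2+estrogen A or CoCl2+estrogen C was left out (adjusted p = 0.0508 to 0.116). The other 4 were COA7 (0.49) and PET117 (0.68), assembly factors of complex IV, and the regulator genes PPARGC1B (1.49) and NRF1 (-0.47 on the log2 scale), named with their values in view.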

How the results depend on the processing

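With library totals in place of TMM, which moved the median of all genes to -0.13 and -0.10, the median log2 fold change of the members was -0.55 for estrogen and -0.49 for CoCl2+estrogen against control. For CoCl2+estrogen against estrogen, 5 members were called with all 12 libraries in 1 fit and 20 with a replicate block, and leaving out 1 library gave 2 (without CoCl2+estrogen A) to 12 calls. Leaving out 1 library gave 53 to 60 calls for estrogen, 53 to 57 for CoCl2+estrogen against control and 46 to 56 against CoCl2, with medians of -0.47 to -0.34, -0.43 to -0.31 and -0.39 to -0.34, and 0 calls for CoCl2 and for the interaction. By the rule used, the letters did not pair the libraries: in no comparison did all 3 letters correlate by more than 0.1, and at most 2 of 3 libraries correlated best with their own letter. Partial pairing was not tested. Letters A and B correlated by 0.222 and 0.346 in CoCl2 against control, and B and C by 0.275 and 0.108 in CoCl2+estrogen against estrogen. There the block raised the genes called from 229 to 327 and from 2706 to 3791. In the other fits it lowered them, as from 11217 to 10620 for estrogen against control. With the replicate block 54, 52 and 53 members were called for estrogen, CoCl2+estrogen against control and against CoCl2, and 0 for CoCl2 and the interaction. The CoCl2 median, 0.03, was -0.03 with library totals (all genes -0.07), and the interaction median, 0.06, was -0.0021 without control C and -0.0080 without estrogen C, each a shift below the 0.0806 SD of the members' median between libraries of a group. No named gene that was called changed its sign. Of the named genes, 7 of 45 lost their call under some alternative for estrogen against control, 4 of 44 for CoCl2+estrogen against control, 2 of 41 against CoCl2 and 4 of 11 against estrogen; the cause was not tested. With 3 libraries a group, the median half-width of a member's 95% interval was 0.19 on the log2 scale for estrogen and 0.22 for CoCl2.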
